A study of Cavia porcellus with 35 samples.

Results

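The genes described were 10 neuropeptide genes of the cortex, SST, VIP, NPY, CCK, CORT, TAC1, TAC3, NTS, GRP and CARTPT, taken by symbol from the 4 deposited count tables. Of these 10 genes, 9 had values among the 12100 gene symbols of all the tables together, and CORT was not analysed here. SST, NPY, CCK, TAC1, TAC3 and GRP, 6 genes, had values in all 4 tables. VIP was not analysed here in F3 females, NTS in F2 females and CARTPT in F1 females. Each table had 8 of the 10 genes above the filter on low counts; NTS was listed in F1 males but did not pass that filter. NTS, GRP and TAC3 were included because of their changes in F1 or F2, so their values in the F1 and F2 animals are given as descriptions with no test, and a test of their response to sGC was read in F3 females only. How they varied between animals of a group, with the group means removed, was tested in all animals.

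Neuropeptides are cut from larger precursor proteins, packed into dense-core vesicles and released on strong or repeated firing, after which they act on G protein-coupled receptors over longer distances and times than fast transmitters. In the cortex most of these peptides are made by GABA interneurons, and somatostatin (SST), vasoactive intestinal peptide (VIP) and neuropeptide Y (NPY) name or mark interneuron classes. Cholecystokinin (CCK) is made by interneurons and also by pyramidal neurons, and the tachykinin precursor TAC1, which gives substance P, is a hallmark of the direct-pathway neurons of the neighbouring striatum as well as being made in some cortical interneurons.

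RNA had been sequenced from punches of the medial prefrontal cortex (mPFC) of 35 guinea pigs at day 40, with 1 library per animal. The first generation (F1) was exposed before birth, since their mothers had received 3 courses of the synthetic glucocorticoid (sGC) betamethasone at 1 mg/kg, or saline in controls, and the F2 and F3 animals descended from them through fathers mated with females from outside the experiment. Female groups held 4 control and 4 sGC animals in each of F1, F2 and F3, and the F1 males were 5 control and 6 sGC animals. In F2 and F3 "sGC" therefore denotes the treatment of the female that founded the line, and no F2 or F3 animal or its own mother was treated. Levels are CPM, read counts scaled to library size with TMM factors within each table. A value after ± is the SD over animals for a mean in CPM. For a log2 fold change, or a difference between such changes, it is the SE. The 4 tables were counted separately, so that a level in one table set beside a level in another is a description only, and differences in the response to sGC between tables were tested as interactions. No gene lengths were used, and levels of different genes were therefore not ranked against each other.

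Libraries held between 12819964 and 31763585 assigned reads, with 12819964 to 19551079 in females and 25697953 to 31763585 in males. The labels name the prefrontal cortex as the source, but their extraction text names the paraventricular nucleus. Of 8 hypothalamic markers 4 or 5 were listed per table, with a summed level of 7.5 to 18.8 CPM. In that sum AVP and OXT each had group means of at most 3.63 CPM, and SIM1 had group means of 4.24 to 12.8 CPM. The 5 or 6 listed of 7 cortical glutamatergic markers summed to 267 to 4278 CPM. The F1 female libraries stood apart from one another in such markers. Controls 2, 3 and 4 had the lowest cortical glutamatergic sums, 267 to 422 CPM, against 1245 CPM in control 1, 1198 to 1581 CPM in sGC animals 1 to 3 and 4278 CPM in sGC animal 4. Controls 1 and 4 had the highest summed level of 8 listed striatal markers (of 10), 3076 and 2742 CPM, against 609 and 988 CPM in controls 2 and 3 and 292 to 748 CPM in the sGC animals. The NPY and TAC1 results and the VIP differences that rest on F1 females are therefore also given without controls 1 and 4, and without controls 2, 3 and 4. These fits were chosen after seeing the data. For CCK and NTS they are given in part, and for GRP not at all. Single receptor, processing and marker genes are not given in these fits. With only control 1 left, that library was assumed to vary like the sGC animals.

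**Figure D1:**
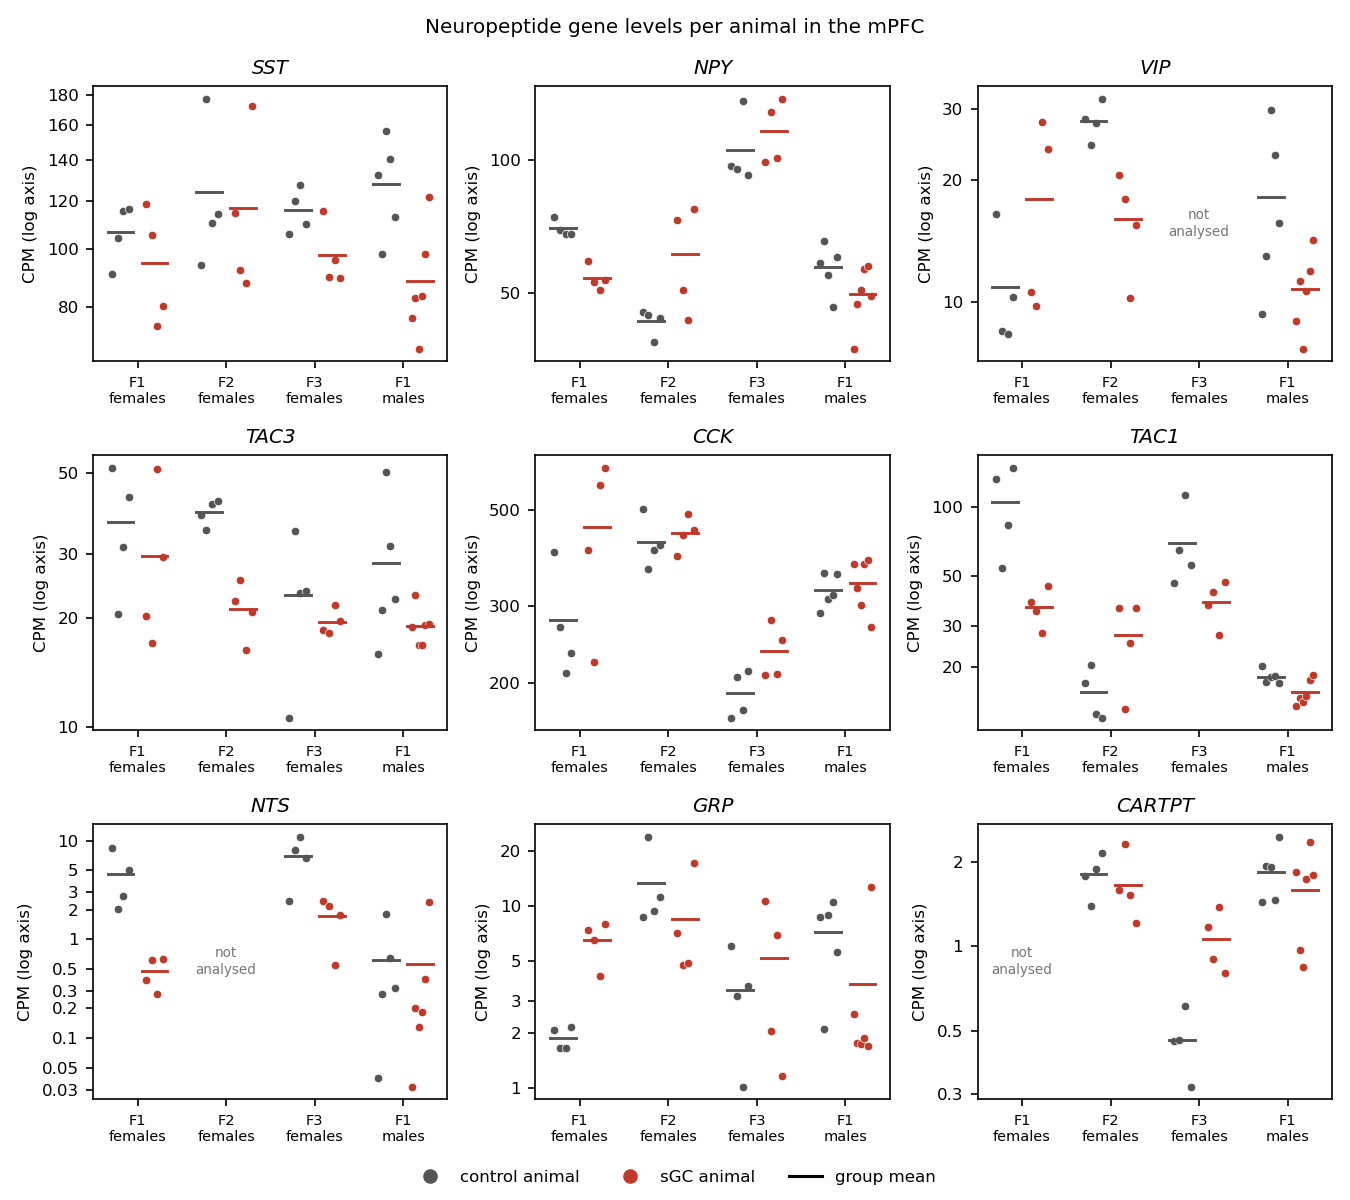
Levels of the 9 neuropeptide genes in each of the 35 animals, in CPM on a log axis, for control (grey) and sGC (red) animals of the 4 groups, with lines at group means. The groups lay apart for NPY and TAC1 in F1 females, VIP and TAC3 in F2 females and CARTPT in F3 females, and NTS and GRP also lay apart in F1 females.

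Of the interneuron peptides, NPY and SST each fell in 1 group. NPY, a peptide that dampens excitability and is linked to resilience to stress, was lower in sGC than in control F1 females, and SST, the peptide of dendrite-targeting interneurons, was lower in sGC F1 males. VIP, made by interneurons that mostly inhibit other interneurons, did not pass the test in any single group, but its response differed between groups. Of the 5 neuropeptide genes tested in F1 females that were not chosen on their change, NPY and TAC1 passed edgeR's quasi-likelihood test at an FDR below 0.05, against 16.5% of all genes tested there. In F1 males 1 of 6, SST, did so, against 9.22% of all genes.

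The 4 control F1 females had NPY levels of 74.6, 69.4, 68.3 and 68.3 CPM and the 4 sGC females 59.1, 53.2, 51.03 and 53.6 CPM. Every sGC female lay below every control, an arrangement seen for 11.2% of all genes tested in F1 females. The log2 fold change of NPY was -0.37 ± 0.06 (SE, n = 4 per group, FDR = 0.00770), and it passed in each of the 8 fits without 1 animal. In a single fit of all 35 animals, which share one estimate of the spread, it had an FDR of 0.0604 at -0.37 and did not pass. Without controls 1 and 4 it was -0.32 (FDR = 0.0360), and against control 1 alone -0.46 (FDR = 0.155), which no longer passed. Among the 8 group means of NPY, those of F3 females were highest, and every F3 animal lay above every F1 female control.

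NPY had other values in the remaining groups. In F2 females the controls had 45.4, 44.8, 38.9 and 44.1 CPM and the sGC animals 73.1, 50.9, 43.5 and 77.5 CPM. The groups overlapped through sGC animal 3 only, and the log2 fold change of 0.50 ± 0.16 had an FDR of 0.166. F3 females had 97.0, 95.6, 136 and 92.4 CPM in controls and 99.0, 129, 100.97 and 138 CPM in sGC animals, which overlapped broadly (0.15 ± 0.15, FDR = 0.663). F1 males had 58.7, 65.8, 54.9, 46.7 and 60.3 CPM in controls and 37.5 to 57.5 (median 50.2) CPM in sGC animals, and these also overlapped (-0.20 ± 0.11, FDR = 0.274). The NPY response of F2 females differed from that of F1 females by 0.87 ± 0.19 on the log2 scale (F2 minus F1, interaction FDR = 0.0120). That difference kept an FDR under 0.05 in all 16 fits without 1 animal, had an FDR of 0.0218 without F1 controls 1 and 4, and one of 0.0871 against F1 control 1 alone.

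SST fell in F1 males, from 132, 98.0, 157, 141 and 113 CPM in the 5 controls to 68.3 to 122 (median 83.1) CPM in the 6 sGC animals. The groups overlapped, since sGC animal 6 lay above controls 2 and 5 and sGC animal 5 was just below control 2. The log2 fold change was -0.54 ± 0.14 (FDR = 0.0345), and it held an FDR under 0.05 in 3 of 11 fits without 1 animal, namely those without control 2, control 5 or sGC animal 6. In the other 8 the FDR was between 0.0501 and 0.0901, with log2 fold changes from -0.56 to -0.45. In females SST had 90.7, 104, 116 and 116 CPM in F1 controls and 119, 105, 74.4 and 80.2 CPM in F1 sGC animals (-0.17 ± 0.15, FDR = 0.449). F3 controls had 106, 120.0, 127 and 109.8 CPM and F3 sGC animals 115, 89.7, 95.8 and 89.3 CPM (-0.24 ± 0.09, FDR = 0.217). F2 females had 1 high animal in each group, with 94.1, 177, 110.3 and 114 CPM in controls and 114, 92.2, 87.6 and 172 CPM in sGC animals (-0.09 ± 0.23, FDR = 0.890). SST had the narrowest span of group means, from 88.4 CPM in F1 male sGC animals to 128 CPM in F1 male controls, and all neighbouring groups in this order overlapped. The difference in SST response between F1 males and F1 females was -0.37 ± 0.23 (FDR = 0.230). In bulk tissue, fewer cells of a type and less RNA per cell cannot be told apart.

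VIP in F2 females was 28.3, 24.4, 27.7 and 31.8 CPM in controls and 20.5, 18.0, 10.3 and 15.5 CPM in sGC animals. All 4 sGC females lay below all 4 controls, as did 4.02% of genes tested there, and the log2 fold change of -0.80 ± 0.17 had an FDR of 0.0578, just above the threshold. The likelihood ratio test of edgeR gave an FDR of 0.00104 and DESeq2 0.00089. F1 males had 9.36, 13.0, 29.7, 23.0 and 15.7 CPM in controls and 7.70 to 14.2 (median 11.0) CPM in sGC animals, overlapping ranges that came from the spread of the controls (-0.75 ± 0.25, FDR = 0.0768). There the likelihood ratio test called VIP (FDR = 0.03). F1 females had 16.5, 8.51, 8.35 and 10.3 CPM in controls and 10.6, 9.78, 27.8 and 23.8 CPM in sGC animals, of which animals 3 and 4 were high and the others were among the controls (0.71 ± 0.38, FDR = 0.212).

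The response of VIP was lower in F1 males than in F1 females by -1.47 ± 0.47 (males minus females, FDR = 0.0245) and lower in F2 than in F1 females by -1.52 ± 0.44 (FDR = 0.0341). The first difference lost its call without F1 female control 2 or 3 or sGC animal 3 or 4 (FDR 0.0525 to 0.0691), and the second without any of F1 female controls 2, 3 and 4, F1 female sGC animals 3 and 4, F2 controls 3 and 4 and F2 sGC animals 3 and 4 (FDR 0.0511 to 0.0665). Against F1 female control 1 alone the differences were -0.87 and -0.93 (FDR = 0.406 for both), and without controls 1 and 4 they were -1.86 (FDR = 0.0169) and -1.92 (FDR = 0.0147).

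**Figure D2:**
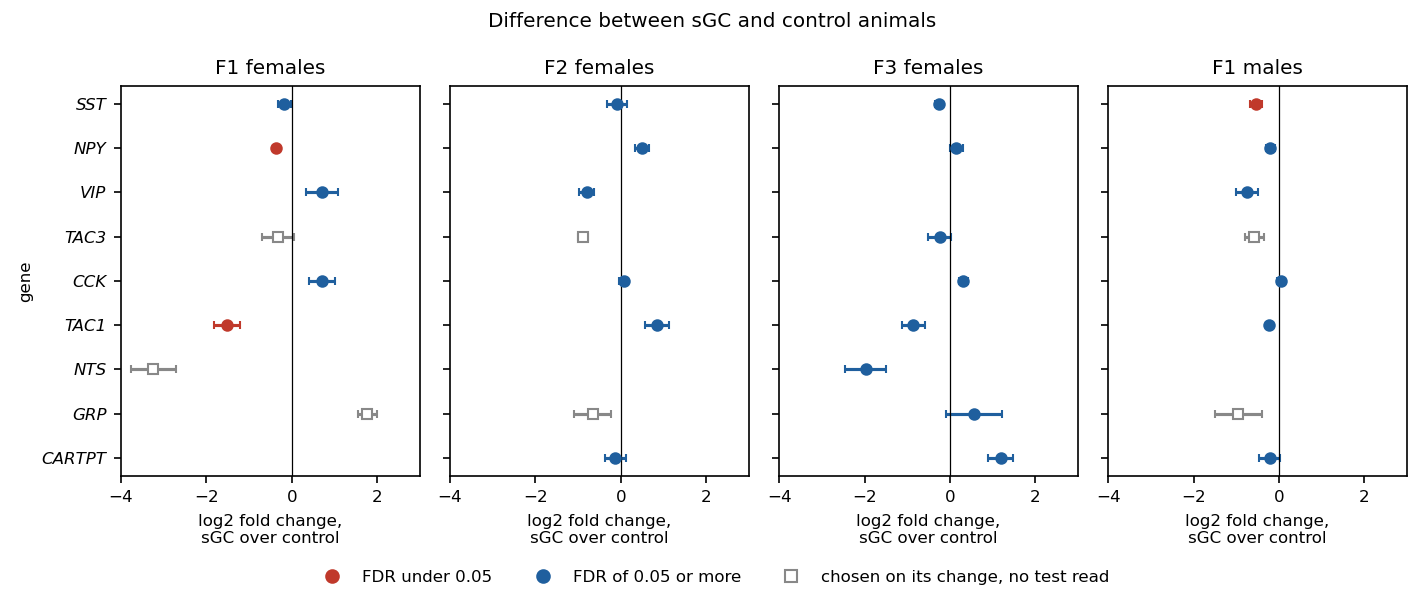
Log2 fold changes (sGC over control) of each neuropeptide gene in the 4 comparisons, with bars of 1 SE; filled red circles have an FDR under 0.05, blue circles do not, and open grey squares are NTS, GRP and TAC3 where they were chosen on their change. NPY and TAC1 in F1 females and SST in F1 males are red.

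TAC1, the precursor of substance P and neurokinin A, fell in sGC F1 females from 105 ± 43.8 to 36.6 ± 7.06 CPM, and its response in F1 females differed from that in F2 females and F1 males. Controls had 133, 54.1, 83.1 and 149 CPM and sGC animals 38.3, 35.002, 28.0 and 44.9 CPM. No sGC animal reached the lowest control, as for 11.2% of all genes tested in F1 females. Controls 1 and 4 were the highest of all 35 animals. The log2 fold change was -1.52 ± 0.30 (a fold of 2.86, FDR = 0.0142), with an FDR under 0.05 in all 8 fits without 1 animal. Without controls 1 and 4, the change was -0.89 (FDR = 0.0360), and against control 1 alone it was -1.86 (FDR = 0.0322).

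Markers of striatal neurons moved with TAC1 in the same animals. Of 8 striatal genes tested in F1 females, PPP1R1B, RGS9, SIX3, PDE10A and RASD2 fell (5 of 8, none rose, against 16.5% of all genes called). DRD2 and ADORA2A went from means of 94.3 and 202 CPM to 7.44 and 21.7 CPM (FDR = 0.0566 for each). Within groups, over all 35 animals with the group means removed, log2 TAC1 and log2 summed striatal markers had a Pearson's r of 0.73 (Spearman's rho 0.69, permutation p = 8e-05 and 4.9e-04, adjusted p for r over 81 relations 0.00243). Without the 2 animals whose TAC1 lay farthest from the median, r was 0.71. The r was 0.88 in F1 females, 0.77 in F2 females and 0.90 in F3 females, and -0.01 in F1 males, whose sums spanned only 163 to 190 CPM. The part of striatal tissue in the TAC1 result was not tested.

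In F3 females, TAC1 had 46.3, 65.0, 112 and 55.6 CPM in controls and 37.1, 42.3, 27.5 and 47.0 CPM in sGC animals, which overlapped through control 1 and sGC animal 4. The log2 fold change of -0.86 ± 0.27 had an FDR of 0.140. The striatal sums were 440 to 1369 CPM in these controls and 280 to 657 CPM in the sGC animals, with 0 of 8 striatal genes called, against 1.34% of all genes. F2 females had 16.9, 20.3, 12.4 and 11.97 CPM in controls and 36.1, 13.1, 25.3 and 36.0 CPM in sGC animals, of which 3 lay above every control (0.85 ± 0.28, FDR = 0.180). There the striatal gene DRD1, the receptor of direct-pathway neurons, rose from 19.9 ± 2.26 to 38.8 ± 9.38 CPM (FDR = 0.0443), the 1 call among 5 striatal genes tested, against 0.278% of all genes called. RGS9 and RASD2 had log2 fold changes of 0.23 and 0.22 (FDR = 0.454 and 0.276), and PPP1R1B and PDE10A had 0.00092 and -0.11. DRD2, which did not pass the filter, averaged 1.66 CPM in control and 0.439 CPM in sGC females. Leaving out sGC animal 2 gave TAC1 a log2 fold change of 1.07 with an FDR of 0.00997. F1 males had the narrowest spread, 20.04, 17.1, 18.1, 18.1 and 17.0 CPM in controls and 13.4 to 18.4 (median 14.8) CPM in sGC animals (-0.22 ± 0.09, FDR = 0.121). Without sGC animal 6 the FDR in males was 0.031.

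Interaction tests placed these TAC1 responses apart. The response in F2 females exceeded that in F1 females by 2.36 ± 0.46 (FDR = 0.00641), and that in F1 males exceeded that in F1 females by 1.29 ± 0.29 (FDR = 0.00312). Both kept their calls in every fit without 1 animal (16 of 16 and 19 of 19), without F1 female controls 1 and 4 (1.73, FDR = 0.0113, and 0.67, FDR = 0.0212) and against control 1 alone (2.70, FDR = 0.0109, and 1.64, FDR = 2.5e-04). F3 minus F1 females was 0.65 ± 0.43 (FDR = 0.473), and F3 minus F2 females -1.70 ± 0.43 (FDR = 0.136). Counted over the genes not chosen on their change, 2 of 5 differed between F1 males and females, against 31.7% of all genes, and 3 of 5 between F1 and F2 females, against 13.8%. Between F1 and F3 females 0 of 4 did, against 0.0981%, with NPY at an unadjusted p of 0.00893. Between F2 and F3 females 0 of 5 did, against 0.018%, with TAC1 and CARTPT at unadjusted p of 9.7e-04 and 0.00262, and the likelihood ratio test and DESeq2 each called 1, TAC1.

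TAC3 encodes neurokinin B and was included for its change, so that its F1 and F2 values are descriptions. In F2 females the controls had 38.5, 34.9, 41.1 and 42.0 CPM and the sGC animals 22.2, 25.4, 16.2 and 20.7 CPM (log2 fold change -0.89 ± 0.12), and the groups lay apart. F1 females had 51.9, 20.5, 31.4 and 43.0 CPM in controls and 20.2, 17.0, 51.4 and 29.3 CPM in sGC animals, which overlapped over nearly the whole range. F1 males had 15.9, 21.0, 50.3, 31.5 and 22.5 CPM in controls and 16.8 to 23.1 (median 19.0) CPM in sGC animals, so that the sGC males were the more even group. In F3 females, where it could be tested, TAC3 had 10.6, 34.6, 23.4 and 23.7 CPM in controls and 18.5, 18.1, 21.7 and 19.5 CPM in sGC animals (-0.24 ± 0.28, FDR = 0.711).

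CCK, whose peptide acts in the cortex on the CCKB receptor, had 399, 269, 211 and 234 CPM in F1 female controls and 404, 223, 569 and 625 CPM in sGC animals. Of the latter, animals 1, 3 and 4 lay above all controls, animal 1 only just above control 1, and the log2 fold change of 0.71 ± 0.31 had an FDR of 0.146. Without sGC animal 2 it was 0.94 (FDR = 0.0382), and against control 1 alone 0.19 (FDR = 0.885). The single fit of all animals called it at 0.71 (FDR = 0.00707). The response of CCK in F1 males minus that in F1 females was called in the single fit (-0.66, FDR = 0.0488) and without F1 female controls 1 and 4 (-0.89, FDR = 0.047), but not in the joint fit of the 2 tables. F3 females had 166, 207, 173 and 213 CPM in controls and 209, 279, 209 and 250.3 CPM in sGC animals (0.32 ± 0.12, FDR = 0.200). F2 females had 501, 366, 405 and 415 CPM and 392.3, 436, 489 and 449.8 CPM (0.07 ± 0.10, FDR = 0.793), and F1 males 289.8, 358, 312, 319 and 356 CPM in controls and 268 to 383 (median 353) CPM in sGC animals (0.05 ± 0.09, FDR = 0.781). In both groups the control and sGC animals overlapped.

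NTS, neurotensin, a peptide that modulates dopamine signalling, was included for its change in F1. Control F1 females had 8.46, 2.01, 2.74 and 5.06 CPM and sGC females 0.391, 0.620, 0.277 and 0.630 CPM, that is 29 to 145 reads against 4 to 9 reads, and the groups lay apart (log2 fold change -3.24 ± 0.53, no test read). The 2 controls with the highest NTS, controls 1 and 4, were those with the highest striatal sums, and without them the value was -2.27. In F3 females, which the choice did not use, the controls had 2.42, 7.98, 11.0 and 6.67 CPM and the sGC animals 2.46, 2.18, 0.554 and 1.76 CPM. Control 1 lay among the sGC animals and the other 3 controls lay above all of them, and the log2 fold change of -1.98 ± 0.48 had an FDR of 0.0759. Without control 1 it was -2.27 (FDR = 0.00916), and the likelihood ratio test and DESeq2 gave an FDR of 0.0029 and 0.00104. In F1 males NTS was listed with 1 to 66 reads and did not pass the filter; all but control 3, control 4 and sGC animal 6 had at most 0.399 CPM.

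GRP, gastrin-releasing peptide, a bombesin-like peptide, was likewise included for its change. F1 female controls had 2.10, 1.66, 1.67 and 2.17 CPM and sGC animals 7.36, 6.55, 4.15 and 7.98 CPM, which lay apart (log2 fold change 1.77 ± 0.23, no test read). In the other groups single animals were far from the rest. F2 females had 8.69, 24.1, 9.39 and 11.2 CPM in controls and 7.12, 4.76, 4.86 and 17.3 CPM in sGC animals, with control 2 and sGC animal 4 high. F1 males had 8.70, 2.11, 8.90, 10.6 and 5.63 CPM in controls and 1.70 to 12.8 (median 1.83) CPM in sGC animals, of which 5 had at most 2.54 CPM and sGC animal 6 had 12.8 CPM, the highest of the 11 males. F3 females had 6.05, 3.19, 1.02 and 3.62 CPM in controls and 10.7, 2.07, 6.93 and 1.17 CPM in sGC animals (0.57 ± 0.65, FDR = 0.709).

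CARTPT, the precursor of the CART peptides, which were first studied in reward and feeding circuits, was low in all 3 tables where it had values. In F3 females the controls had 0.461, 0.4658, 0.614 and 0.318 CPM (5 to 9 reads) and the sGC animals 1.17, 0.902, 1.39 and 0.805 CPM (11 to 20 reads). Each sGC animal lay above each control, as for 5.95% of genes, and the log2 fold change of 1.19 ± 0.28 had an FDR of 0.0714. F2 females had 1.78, 1.39, 1.88 and 2.15 CPM and 1.59, 2.30, 1.53 and 1.21 CPM in control and sGC animals (-0.12 ± 0.24, FDR = 0.849). F1 males had 1.44, 1.93, 1.91, 1.46 and 2.46 CPM in controls and 0.845 to 2.36 (median 1.76) CPM in sGC animals (-0.22 ± 0.25, FDR = 0.652). Every F3 control was below every other animal with a value for this gene.

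Group means of the 9 genes could be put in order across the tables, as a description. TAC1 ran from 15.4 CPM in F2 controls to 104.7 CPM in F1 female controls, VIP from 10.8 CPM in F1 male sGC animals to 28.0 CPM in F2 controls, and TAC3 from 19.0 CPM in F1 male sGC animals to 39.1 CPM in F2 controls. NPY ran from 43.3 CPM in F2 controls to 117 CPM in F3 sGC females, CCK from 189.8 CPM in F3 controls to 455 CPM in F1 female sGC animals, and GRP from 1.90 CPM in F1 female controls to 13.3 CPM in F2 controls. NTS had the widest span, from 0.479 CPM in F1 female sGC animals to 7.02 CPM in F3 controls. Neighbours in these orders were free of overlap in only 2 places, between F1 female and F3 controls for NPY and between F3 control and sGC animals for CARTPT.

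Among the neuropeptide genes whose test was read, none passed in F2 or F3 females. In F2 females 0 of 6 genes not chosen on their change passed edgeR's quasi-likelihood test at that FDR, against 0.278% of all genes, while VIP, NPY and TAC1 had an unadjusted p under 0.05, and the likelihood ratio test and DESeq2 each called 1, VIP. In F3 females 0 of 8 did, against 1.34% of all genes. SST, CCK, TAC1, NTS and CARTPT had an unadjusted p under 0.05 there, the likelihood ratio test called 3 (TAC1, NTS and CARTPT) and DESeq2 called 1 (NTS). In F3 females the 8 genes had a median absolute log2 fold change of 0.45, against 0.09 over all 11420 genes tested. These medians were not tested against each other and take no account of noise. GRP and TAC3 had changes smaller than their SE (0.57 ± 0.65 and -0.24 ± 0.28), and NTS and CARTPT had 5 to 161 reads per animal. NTS, GRP and TAC3 were also among the 8 because of their changes in F1 or F2.

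Some of the peptides varied together from animal to animal within groups. After the group means of log2 CPM were removed, 7 of 36 pairs had an adjusted permutation p under 0.05 for Pearson's r (100000 permutations within groups, two-sided, Benjamini-Hochberg over 36 pairs). VIP and TAC3 were the closest pair, with r = 0.87 over 27 animals (rho = 0.86, permutation p = 1e-05 and 2e-05, of which the first is the smallest that the permutations can give, adjusted p = 3.6e-04 and 7.2e-04). Their r was 0.88 in F1 females, 0.89 in F2 females and 0.89 in F1 males, and 0.83 without the 2 animals whose VIP lay farthest from the median.

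The other 6 pairs were looser. SST and GRP had r = 0.62 over 35 animals (rho = 0.56, adjusted permutation p = 0.0042 and 0.00799), with 0.99 in F2 females, 0.82 in F1 males, 0.37 in F1 females and 0.26 in F3 females, and SST and CCK went in opposite directions, with r = -0.49 (rho = -0.57, adjusted permutation p = 0.0193 and 0.00799) and a negative r in each of the 4 tables, from -0.76 to -0.45. NPY and TAC1 had r = 0.55 (rho = 0.58, adjusted permutation p = 0.0256 and 0.00799), from 0.31 in F1 males to 0.86 in F3 females. NTS rose and fell with VIP (r = 0.63 over 19 animals, rho = 0.59, adjusted permutation p = 0.00936 and 0.0478), with TAC1 (r = 0.52 over 27, rho = 0.71, adjusted permutation p = 0.0042 and 0.00198) and with TAC3 (r = 0.48 over 27, rho = 0.51, adjusted permutation p = 0.0409 and 0.0635). With VIP the r was 0.29 in F1 females and 0.86 in F1 males. In F1 females, F3 females and F1 males it was 0.87, 0.80 and 0.51 with TAC1, and 0.33, 0.51 and 0.64 with TAC3. The F1 males were included although NTS, at 1 to 66 reads, did not pass the filter there. Without the 2 animals whose VIP lay farthest from the median, the r of NTS with VIP was 0.45. Without the 2 farthest in TAC3, that of NTS with TAC3 was 0.31. Leaving out each animal in turn gave 5 to 9 pairs.

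**Figure D3:**
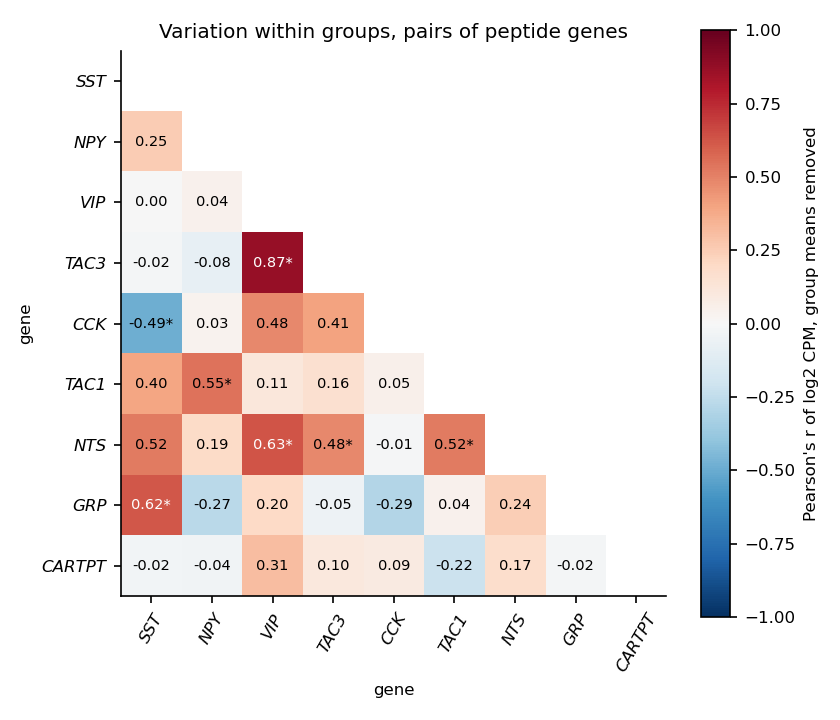
Pearson's r of log2 CPM between pairs of neuropeptide genes after the mean of each of the 8 groups was removed, from blue (-1) to red (1); an asterisk marks an adjusted permutation p under 0.05. VIP with TAC3 is the deepest red (0.87), and SST with CCK is the 1 marked pair below 0 (-0.49).

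Marker sums went with several of these genes in the same animals. Of 81 relations of 9 genes with 9 marker lists, chosen after seeing the data, 7 had an adjusted permutation p under 0.05. TAC3 went with the 4 or 5 listed oligodendrocyte markers at r = -0.85 over 35 animals (rho = -0.83, permutation p = 1e-05 for both, the smallest that the permutations can give, adjusted p = 8.1e-04) and had an r between -0.92 and -0.80 in each table. VIP also ran against them (r = -0.70 over 27 animals, rho = -0.70, adjusted permutation p = 0.00567). With the summed GABA neuron markers, which include no neuropeptide gene, TAC3 had r = 0.81 (rho = 0.62, adjusted permutation p = 0.00243), VIP 0.66 (rho = 0.53, adjusted permutation p = 0.0498) and NTS 0.51 (rho = 0.58, adjusted permutation p = 0.0247). In F2 females alone, however, the r with GABA neuron markers was -0.90 for TAC3 and -0.79 for VIP. For NTS it was 0.32 in F1 females, 0.81 in F3 females and 0.72 in F1 males, where NTS did not pass the filter. SST went with astrocyte markers at r = 0.63 (rho = 0.53, adjusted permutation p = 0.0157), with 0.86 in F2 females, 0.76 in F1 males, 0.27 in F1 females and -0.37 in F3 females.

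Oligodendrocyte marker sums were compared between control and sGC animals too. In F1 males all 5 that were tested rose, against 9.22% of all genes called in either direction, and their sum was 3371 to 6450 CPM in controls and 7228 to 12409 CPM in sGC animals. In F2 females the sum was 3129 to 4860 CPM in controls and 4665 to 11027 CPM in sGC animals, with 0 of 5 genes called and FDRs between 0.0517 and 0.0723. In F1 females the order was turned round, 4505 to 15307 CPM in controls and 3517 to 7139 CPM in sGC animals, with 0 of 5 called. The part of oligodendrocyte RNA in the levels of VIP and TAC3 was not tested.

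**Figure D4:**
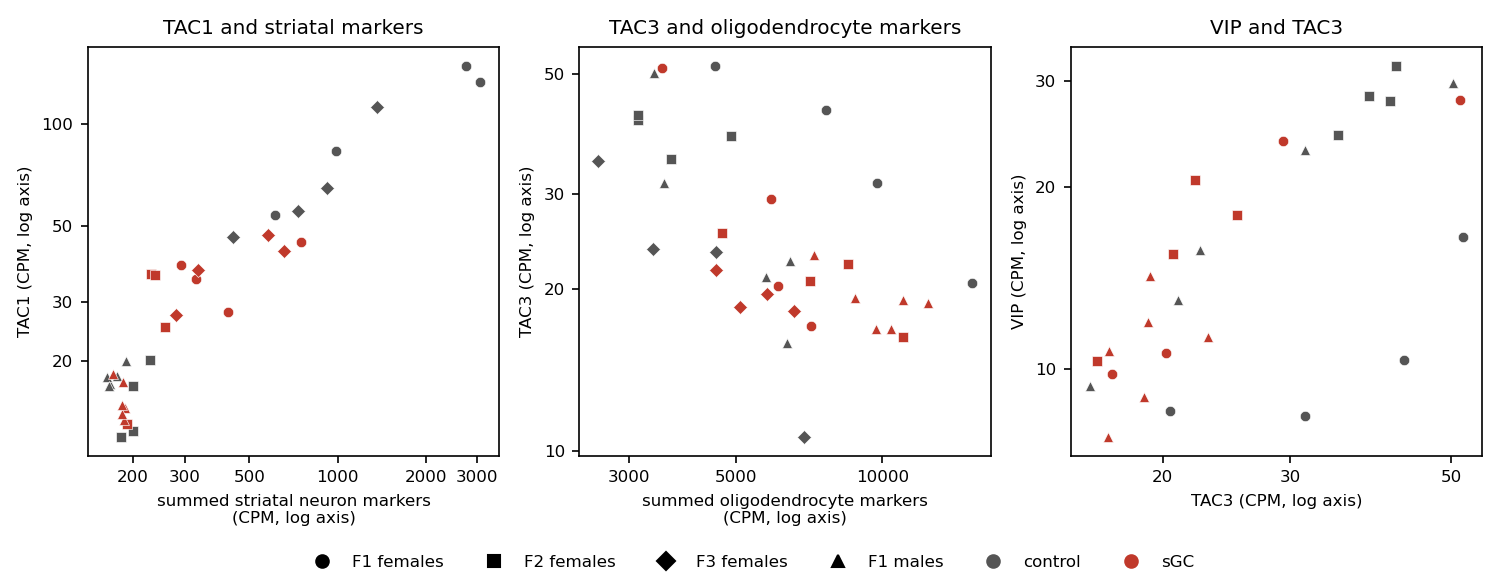
TAC1 against summed striatal markers, TAC3 against summed oligodendrocyte markers and VIP against TAC3, in CPM on log axes, 1 point per animal; the shape gives the group of animals and the colour the treatment, and the number of markers listed differed between tables. TAC1 climbed with the striatal sum in the females, TAC3 fell with the oligodendrocyte sum, and VIP climbed with TAC3, with F1 female controls 1, 3 and 4 below the other points.

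Genes with the most similar variation were searched among 10724 genes (10725 where 27 animals had values) tested in all tables and are given as a description. For TAC1 they were RGS9 (r = 0.86), a regulator of G protein signalling abundant in striatal neurons, REM2 (0.80) and RAP1GAP (0.76). For TAC3 they were SLC24A4 (0.94), DCLK3 (0.90) and CDH8 (0.89), and for VIP, TAC3 itself (0.87), CPNE4 (0.85) and NWD2 (0.84). For CCK they were CAMKK2 (0.88), a calmodulin-dependent kinase kinase, CABP1 (0.84), a calcium-binding protein, and RTN4R (0.82), the Nogo receptor. For SST they were GPRC5A (0.82), FXYD6 (0.80) and RPL35 (0.79), for GRP, DOC2A (0.88), ADAMTS2 (0.80) and FGFR1 (0.78), and for NPY, ADCY1 (0.72), REEP6 (0.69) and NIN (0.65). For NTS they were COL1A1 (0.83), NT5DC3 (0.81) and FBXL18 (0.79), and for CARTPT, COL14A1 (0.80), TNC (0.71) and KCTD14 (0.69), in 27 animals each. Those of NTS included the F1 males, where NTS did not pass the filter. The r for the other genes were over 35 animals, or 27 for VIP.

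Receptors of the peptides were read from a list of 22 genes, of which 15 or 16 were listed per table. In F1 females 5 of 15 tested rose and none fell, in F3 females 2 of 14 rose, in F1 males 1 of 15 fell, and in F2 females 0 of 14 passed, against 9.21% of genes rising in F1 females, 1.07% rising in F3 females and 3.48% falling in F1 males. In F2 females, where 0.278% of all genes passed in either direction, NMBR and TACR3 came nearest, with an FDR of 0.0506 and 0.0723. NPY1R and NTSR1 also had an unadjusted p under 0.05 there. SSTR1, a somatostatin receptor, rose in F1 females from 61.8 ± 10.2 to 85.8 ± 11.9 CPM (FDR = 0.0443) and in F3 females from 36.5 ± 3.50 to 63.4 ± 4.09 CPM (FDR = 0.00522). CCKBR, the main cortical receptor for CCK, rose from 165 ± 20.6 to 247 ± 31.9 CPM in F1 females (FDR = 0.0145) and from 82.6 ± 10.9 to 123 ± 5.51 CPM in F3 females (FDR = 0.0208). CCK itself did not pass in any of the 4 tables.

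TACR3, the neurokinin B receptor that TAC3 peptide binds, rose in F1 females from 50.5 ± 7.73 to 153 ± 56.0 CPM (log2 fold change 1.60 ± 0.27, FDR = 0.0077). It had means of 189 ± 29.3 and 133 ± 17.6 CPM in F2 control and sGC females (-0.51 ± 0.12, FDR = 0.0723). All 4 sGC animals there lay below all 4 controls, as for 4.02% of genes tested. In F1 males its means were 195 ± 44.7 and 153 ± 23.4 CPM (-0.35 ± 0.14, FDR = 0.135). Its response differed between F1 males and females by -1.95 ± 0.30 (FDR = 1.5e-04) and between F2 and F1 females by -2.11 ± 0.31 (FDR = 0.00163). Of all genes, 31.7% and 13.8% differed in these comparisons. Between F1 males and females SSTR1, SSTR3, CCKBR, SORT1 and NMBR differed too (FDR = 0.0087, 0.0026, 0.0030, 0.0299 and 0.0029), each with a lower response in males. VIPR1, NPY1R, NPY2R, NPY5R, TACR2, NTSR1 and SORL1 did not. SSTR3 also differed between F2 and F1 females (FDR = 0.0497). TACR1, the receptor of the TAC1 product substance P, went from 11.1 ± 5.02 to 6.23 ± 1.06 CPM in F1 females (-0.84 ± 0.31, FDR = 0.0932), and its response in F1 males exceeded that in F1 females by 0.95 ± 0.32 (FDR = 0.0287).

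NMBR, a bombesin-family receptor, rose in F1 females from 3.96 ± 1.34 to 20.7 ± 12.5 CPM (2.39 ± 0.55, FDR = 0.0229), with overlapping groups. SORT1, sortilin, which also binds neurotensin, rose from 254 ± 20.01 to 324 ± 20.2 CPM in F1 females (0.35 ± 0.07, FDR = 0.015). NPY1R, the Y1 receptor, fell in F1 males from 18.4 ± 1.75 to 15.004 ± 1.35 CPM (-0.29 ± 0.08, FDR = 0.0367), in a table where NPY itself did not pass. Neither NPY2R nor NPY5R passed in any of the 4 tables, and NTSR1, the receptor of neurotensin, did not pass in any of them either. The somatostatin receptor SSTR3 had log2 fold changes between -0.13 and 0.28 and did not pass in any table, but its response differed between tables as given above. The 4 comparisons gave 8 receptor calls. Of these, 5 were in F1 females, against all 4 controls, whose libraries stood apart in marker sums. Without F1 female control 3 the 4 comparisons gave 5 receptor calls. The cortical glutamatergic sums of F1 females given above were 1198 to 4278 CPM in sGC and 267 to 1245 CPM in control animals, and in F3 females they were 1128 to 1413 CPM in sGC and 618 to 982 CPM in control animals, with 0 of 5 such markers called; their part in the receptor levels was not tested.

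**Figure D5:**
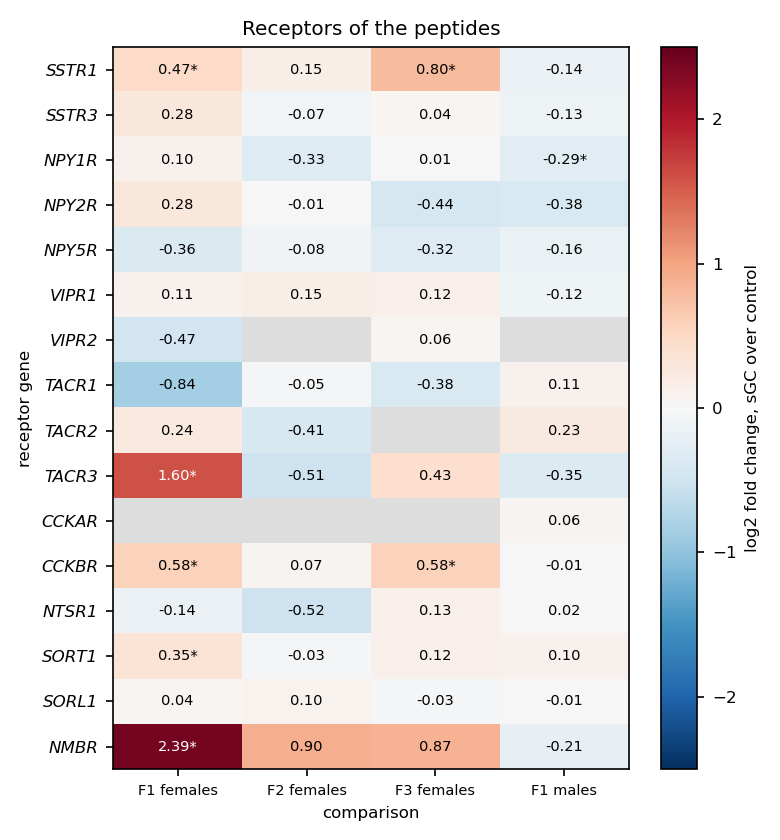
Log2 fold changes (sGC over control) of 16 neuropeptide receptors in the 4 comparisons, from blue (lower in sGC) to red (higher); an asterisk marks an FDR under 0.05 and grey a gene that was not tested. TACR3 and NMBR in F1 females (1.60 and 2.39) are the deepest red.

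The genes that process, store and degrade the peptides were read from a list of 19, of which 18 or 19 were tested per table. In F1 females 3 rose and 1 fell, in F2 females 1 fell, in F1 males 2 rose, and in F3 females 0 of 18 passed. The 4 of 19 in F1 females stood beside 16.5% of all genes called and the 1 of 19 in F2 females beside 0.278%. The 0 of 18 in F3 females stood beside 1.34% and the 2 of 19 in F1 males beside 9.22%. In F1 females PCSK1, the convertase that makes the first cuts in many precursors, rose from 100.04 ± 34.3 to 167 ± 28.9 CPM (FDR = 0.0482), SCG3, a granin of dense-core vesicles, from 283 ± 6.47 to 365 ± 10.3 CPM (FDR = 0.0039), and CADPS, which primes those vesicles for release, from 277 ± 27.7 to 430 ± 27.1 CPM (FDR = 0.0039). MME, neprilysin, which degrades tachykinins and other peptides outside the cell, fell from 16.4 ± 2.34 to 12.4 ± 1.21 CPM (FDR = 0.0484). SCG2, secretogranin II, fell in F2 females from 495 ± 10.2 to 375 ± 9.80 CPM (FDR = 0.0334). CPD, a carboxypeptidase, and NLN, neurolysin, which cuts neurotensin, rose in F1 males from 85.9 ± 6.01 to 97.9 ± 6.01 CPM (FDR = 0.0474) and from 27.5 ± 1.25 to 31.2 ± 1.90 CPM (FDR = 0.0456). The 4 comparisons gave 7 such calls, of which the 4 in F1 females were made against all 4 controls there. The number was 5 without F1 female control 2, 11 with the likelihood ratio test and 13 with DESeq2.

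GABA neuron markers, which the interneurons making most of these peptides share, were compared in the same animals. In F1 females GAD2, SLC32A1 and DLX5 fell (3 of 11, none rose, against 16.5% of all genes called), with summed levels of 1265 to 1706 CPM in controls and 1097 to 1584 CPM in sGC animals. In F1 males GAD1 and CALB2, a marker of many VIP interneurons, fell (2 of 11, against 9.22%), the latter from 62.2 ± 41.8 to 23.0 ± 5.78 CPM (FDR = 0.0256). In F2 females 0 of 11 passed, against 0.278% of all genes. CALB2 there went from 105.5 ± 47.1 to 32.2 ± 16.6 CPM (FDR = 0.0886), with overlapping groups. The sums in F2 females were 1253 to 1312 CPM in controls and 1135 to 1217 CPM in sGC animals, which did not overlap. In F3 females PVALB, the marker of another interneuron class, rose (1 of 10, against 1.34% of all genes). The other 9 did not pass, and GAD1, GAD2, SLC32A1 and DLX5 had log2 fold changes of -0.41, -0.49, -0.85 and -1.10 (FDR = 0.115, 0.0565, 0.0574 and 0.0636). The list had a median of -0.26, and its sums were 910 to 1210 CPM in controls and 895 to 1002 CPM in sGC animals. The part of interneuron number in the neuropeptide levels was not tested.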

How the data were processed

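RNA from the mPFC of 35 guinea pigs had been sequenced with 1 library per animal. The authors deposited, for each of F1, F2 and F3 females and F1 males, a table that lists integer counts of reads under each gene symbol, not normalized, and all count columns were mapped to samples by name. TopHat2 and edgeR are named in the submitters' processing notes without versions; the counter, genome build, annotation and any filter on the genes listed are not given in the sources used here. The library kit does not mark strand, so that reads of overlapping genes cannot be told apart. The tables also hold the authors' own fold changes, mean levels, likelihood ratio statistics, p-values and FDR, which were not used.

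The analysis used edgeR 4.0.16 in R 4.3.3. Genes were kept with filterByExpr (minimum count 10, minimum total count 15), scaled by TMM and tested with the quasi-likelihood test within each table, and p-values were adjusted over all genes tested (Benjamini-Hochberg, FDR). Responses of 4 pairs of tables were compared as interactions in joint fits. Log2 CPM used a prior count of 2. Scripts were tested on simulated data in which 200 genes were changed. Replicates are separate animals, and no 2 libraries agreed within counting noise. Library totals were 12819964 to 31763585 reads, at which NTS in F1 males had 1 to 66 reads and CARTPT in F3 females 5 to 20 reads per animal.

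Members and lists were chosen with earlier results of these data known. Named are the 10 neuropeptide genes, receptor and processing genes with an FDR under 0.05 in any table (and receptors of such a neuropeptide), and the 3 genes most like each member; other genes, such as DRD1, DRD2, ADORA2A, CALB2 and further marker and receptor genes, were named after their values were seen. Alternatives were the likelihood ratio test, DESeq2 1.42.0, 3 other scalings, other filters on low counts, a replicate block, a single fit and the omission of each animal; the fits without F1 female controls were added after seeing the data.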

Additional observations from a re-analysis of the deposited data

Results flagged for a closer look

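Some animals lay far from the other animals of their group for a neuropeptide gene, by the ratio of the gap to the range (Dixon). GRP was 12.8 CPM in F1 male sGC animal 6, against 1.70 to 2.54 CPM in the other 5 sGC males, and NTS was 2.41 CPM in the same animal against 0.0322 to 0.399 CPM. GRP was 24.1 CPM in F2 female control 2, against 8.69 to 11.2 CPM in the other controls, and NPY was 136 CPM in F3 female control 3, against 92.4 to 97.0 CPM. These 4 came from 66 groups of values tested, and chance alone marks about 1 in 20 groups at this limit.

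The response to sGC differed between groups for 3 genes in the interaction tests of edgeR's quasi-likelihood fit. For VIP the difference in log2 fold change was -1.47 (F1 males minus F1 females, FDR = 0.0245) and -1.52 (F2 minus F1 females, FDR = 0.0341). For TAC1 it was 1.29 (F1 males minus F1 females, FDR = 0.00312) and 2.36 (F2 minus F1 females, FDR = 0.00641), and for NPY 0.87 (F2 minus F1 females, FDR = 0.012). Striatal and cortical glutamatergic marker sums spread most in F1 females, the group common to all of these differences, and their part was not tested.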

How the results depend on the processing

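The number of neuropeptide genes called, among those whose test was read, moved with the test. In F2 females (0) it was 1 with the likelihood ratio test and 1 with DESeq2, in F3 females (0) 3 and 1, and in F1 males (1) 2 with the likelihood ratio test, SST and VIP. In F1 females (2) the single fit also called 2, CCK and TAC1, without NPY. Differences called between F2 and F3 females (0) were 1 with the likelihood ratio test, with DESeq2 and with the single fit of all groups, and peptide processing genes (7) were 11 and 13. Against F1 female control 1 alone, SST turned to 0.061 in F1 females and -0.16 for F2 minus F1 females. CCK turned to 0.12 for F3 minus F1 females in that fit. The cause was not tested.

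The replicate numbers of the labels did not pair the animals: same-numbered animals had correlated deviations of -0.33 to 0.34, over 0.1 in 1 or 2 pairs per table, and at most 1 pair per table correlated best with its own number. With the replicate block, 1 difference from F1 males was called (2), since VIP had an FDR of 0.064, and VIP had one of 0.0681 for F2 minus F1 females; genes called were 1080 in F1 females, 53 in F2, 67 in F3, 0 for F3 minus F1 and 9 for F3 minus F2 females.

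Without each animal in turn, 2 to 3 of the neuropeptide genes whose test was read were called in F1 females. The number was 0 to 2 in F2 females, 0 to 1 in F3 females and 0 to 2 in F1 males. Differences were 1 to 3 between F1 females and males, 2 to 4 between F1 and F2 females, and 0 for both comparisons with F3 females; pairs were 5 to 9, receptors 5 to 10 and processing genes 5 to 10. Values that crossed 0 were those of GRP (-0.067 to 0.99) and TAC3 (-0.49 to 0.023) in F3 females, SST in F2 females (-0.34 to 0.14), and SST for F2 minus F1 (-0.17 to 0.30), F3 minus F1 (-0.19 to 0.060) and F3 minus F2 females (-0.39 to 0.090).

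Genes called over the whole tables were 1864 in F1 females, 3327 with the single fit and 49 against control 1 alone. In F2 females 31 became 534 with the likelihood ratio test, 471 with DESeq2, 70 and 96 with upper-quartile scaling and library totals, 76 with no filter and 10 with the single fit. In F3 females 153 became 616, 632 and 396 with the likelihood ratio test, DESeq2 and the single fit. Differences between F1 females and males were 3569, and 1431 against control 1 alone, and between F1 and F2 females 1536, 2389 with the single fit and 153 against control 1 alone. Between F1 and F3 females 11 became 114, 202, 18 and 221 with the likelihood ratio test, DESeq2, upper-quartile scaling and the single fit, 369 without controls 1 and 4 and 1 against control 1 alone. Between F2 and F3 females 2 became 93, 126, 4, 4 and 41 with the likelihood ratio test, DESeq2, RLE, upper-quartile scaling and the single fit. Without 1 animal, calls ran from 613 to 2115 in F1, 0 to 487 in F2 and 20 to 598 in F3 females and from 667 to 1613 in F1 males. NTS and CARTPT in F3 females rest on 5 to 161 reads per animal.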

Other observations

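Glial marker lists were read in the same animals. In F1 females AQP4, ALDH1L1 and GJA1 of 6 astrocyte markers and CX3CR1, CSF1R and P2RY12 of 4 microglia markers fell in sGC animals, and none rose, against 16.5% of all genes called there. Summed microglia markers were 216 to 268 CPM in controls and 163 to 184 CPM in sGC animals, which did not overlap. In F2 females, F3 females and F1 males 0 genes of either list passed in edgeR's quasi-likelihood test, against 0.278%, 1.34% and 9.22% of all genes.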
